A study of Mus musculus with 352 samples.

Results

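Tnni1, Tnnt1, Tnnc1, Tpm3, Myl2 and Myl3 encode the thin-filament proteins and myosin light chains of slow-twitch muscle fibres. They were chosen by symbol, and each symbol mapped to 1 Ensembl gene, so the account covers 6 of the 14413 genes in the expression table. Their level was read in 352 RNA sequencing libraries of whole mouse tibialis anterior muscle, a fast muscle of the shin, all from C57BL/6 mice. Each library came from 1 mouse killed at 1 of 6 zeitgeber times 4 h apart, with 3 to 5 mice per group and time. The submitters sequenced 360 samples and excluded 8 of them.

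The 15 groups differed in the clock gene Bmal1 (Arntl), in age and in feeding. RE-RE mice carried Bmal1(stopFL/stopFL), a floxed stop cassette in Bmal1, with both Syt10-Cre(-/tg) and Hsa-Cre(-/tg). Br-RE mice carried the same allele with Syt10-Cre(-/tg) alone, and Mu-RE mice carried it with Hsa-Cre(-/tg) alone. KO mice carried the allele with Cre(-/-), so the stop cassette is shared by all 4 genotypes, and WT mice were wild-type. Hsa-Cre is driven by the human skeletal actin promoter and acts in skeletal muscle fibres, not in the other cells of a muscle, and Syt10-Cre is a driver used to reach the central clock in the brain. At 10 to 12 weeks, fed ad libitum (ALF), there were 24 RE-RE, 23 Br-RE, 25 Mu-RE, 23 KO and 23 WT mice. At 26 weeks under time-restricted feeding (TRF) there were 23 Mu-RE, 23 KO and 24 WT mice, and at 26 weeks under ALF there were 24 RE-RE, 22 Br-RE, 24 Mu-RE, 24 KO and 22 WT mice. The old WT groups, aged 85 to 116 weeks, had 24 mice under TRF and 24 under ALF.

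A slow fibre contracts when calcium binds troponin C, which releases the hold of troponin I and lets tropomyosin move on the actin filament, with troponin T as the link between them. Myosin heads carry an essential and a regulatory light chain that stabilise the lever arm and tune its movement. Slow fibres make their own version of nearly every one of these proteins, and the tibialis anterior holds few slow fibres. Tnnc1, Myl2 and Myl3 are also the heart's versions, and Tpm3 also gives rise to tropomyosins of non-muscle cells, which a value for the whole gene cannot separate. In RNA from a whole muscle, fewer slow fibres and less RNA per slow fibre cannot be told apart.

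The promoters of the thin-filament genes are shown because these genes varied together from mouse to mouse, and that of Myl3 because it followed them less closely. Each line gives the 250 bases before the RefSeq start site on GRCm38.p6, 5′ to 3′ on the gene's own strand, with E-boxes (CANNTG, the core that myogenic factors and clock factors such as BMAL1 recognise) in capitals.
Tnni1 chr1:135799171-135799420 (+ strand): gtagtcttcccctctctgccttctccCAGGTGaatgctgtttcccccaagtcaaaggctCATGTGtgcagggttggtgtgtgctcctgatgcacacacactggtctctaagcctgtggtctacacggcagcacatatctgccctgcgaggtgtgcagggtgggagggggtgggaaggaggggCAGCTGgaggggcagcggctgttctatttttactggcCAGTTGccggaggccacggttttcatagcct
Tnnt1 chr7:4515976-4516225 (- strand): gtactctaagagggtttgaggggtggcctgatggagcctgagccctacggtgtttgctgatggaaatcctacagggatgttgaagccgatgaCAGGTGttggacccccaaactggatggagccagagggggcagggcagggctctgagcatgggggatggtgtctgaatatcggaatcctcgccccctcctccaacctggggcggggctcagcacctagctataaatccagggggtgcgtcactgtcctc
Tnnc1 chr14:31208062-31208311 (+ strand): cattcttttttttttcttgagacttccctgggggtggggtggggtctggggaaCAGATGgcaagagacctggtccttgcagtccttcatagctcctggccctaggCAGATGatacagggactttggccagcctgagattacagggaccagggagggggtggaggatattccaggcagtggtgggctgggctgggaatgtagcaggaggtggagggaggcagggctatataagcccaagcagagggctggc
Tpm3 chr3:90072401-90072650 (+ strand): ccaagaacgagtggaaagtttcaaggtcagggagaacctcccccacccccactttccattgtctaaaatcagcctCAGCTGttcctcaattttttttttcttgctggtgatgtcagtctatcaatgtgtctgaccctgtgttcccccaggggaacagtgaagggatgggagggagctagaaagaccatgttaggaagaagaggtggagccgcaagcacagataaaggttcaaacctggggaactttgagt
Myl3 chr9:110763428-110763677 (+ strand): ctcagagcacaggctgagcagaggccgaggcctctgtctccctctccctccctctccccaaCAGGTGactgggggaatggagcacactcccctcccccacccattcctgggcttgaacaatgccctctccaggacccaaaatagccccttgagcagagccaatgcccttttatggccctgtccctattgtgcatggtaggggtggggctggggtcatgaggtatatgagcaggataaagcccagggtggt

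On GRCm38, with GENCODE M21 annotation, Tnni1 (ENSMUSG00000026418) lies at chr1:135779434-135810989 and Tnnc1 (ENSMUSG00000091898) at chr14:31208312-31211729, both on the + strand, and Tnnt1 (ENSMUSG00000064179) at chr7:4504570-4516382 on the - strand. Tpm3 (ENSMUSG00000027940) lies at chr3:90072649-90100902, Myl2 (ENSMUSG00000013936) at chr5:122100951-122113472 and Myl3 (ENSMUSG00000059741) at chr9:110741861-110769798, all on the + strand. Each value is for the whole gene, and Tpm3 has 2 annotated pseudogene copies that could share its reads. All 6 members had a RefSeq window, 9 windows in all, with 2 each for Tnni1, Tpm3 and Myl2. For Tnni1 and Tpm3 only the window with the lower coordinates is printed. The printed Tnni1 window holds 4 E-boxes, with first bases at -224, -191, -68 and -31 from the start site. The other Tnni1 window overlaps it and holds 2. Tnnc1 holds 2, and Tnnt1, Tpm3 and Myl3 hold 1 each. Read on both strands, CANNTG occurs in 66.2% of 32851 windows of this length, from 27025 genes. The clock form CACGTG occurs in 6.0% of windows and in none of the 9. The printed Tnni1 window also has an exact match to the MEF2 motif TAAAAATA, read on the opposite strand, with its first base at -44. From the start site of the other Tnni1 window the match lies at -134, and 2.5% of all windows have one. CATTCC, the MCAT motif of TEAD factors, is present once in the Tnnc1 window and in 2 places in the Myl3 window, against 12.6% of all windows. A TATAAA starts at -30 in the Tnnt1 window, and 12.4% of windows hold one. The NFAT core GGAAAA, found in 20.4% of windows, is in none of the 9. Transcript starts of the GENCODE annotation lie within 100 bases of the printed start sites for 5 of 9 Tnni1, 5 of 13 Tnnt1, 3 of 3 Tnnc1, 2 of 16 Tpm3 and 1 of 5 Myl3 transcripts, but for 0 of 12 Myl2 transcripts, whose RefSeq windows are not printed.

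Depth, read from the steps between low values, ranged over 14.76 to 47.82 M (mega) reads per library, and the median was 22.57 M reads. Arntl was not lower in KO muscle: its mean log2 FPKM was 3.42, 3.70 and 3.56 in the KO groups of 10 weeks ALF, 26 weeks ALF and 26 weeks TRF, against 2.77, 2.59 and 2.74 in the WT groups. Its SD over the day was 0.19 to 0.26 in KO and Br-RE groups and 0.40 to 1.29 in the others. A stop cassette need not lower the reads of the whole gene, so this level does not check the label by itself. Group means of Acta1, the skeletal actin gene, ran from 13.82 to 14.15 log2 FPKM, a level of a skeletal muscle sample. Within each set of libraries the female and male means of every gene were equal to within 1e-05 log2 units, and at each age the combined Br-RE and RE-RE libraries had the same mean as the remaining libraries. The sexes were therefore not compared, and Br-RE and RE-RE were tested against each other only. The RE-RE library of 26 weeks, replicate 1 at 0 h, stood apart: 16.25% of the 9862 tested genes lay over 3 SD from its group, against at most 8.37% in any other RE-RE library of that age. Those others were scored against sets that still held this library, so the shares are not on equal terms. Its median r with its group was 0.942, against 0.949 to 0.979 for the others.

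The 6 genes spanned a wide range of abundance. FPKM is scaled by exon length and sequencing depth, so levels can be compared roughly between genes. A transcript much shorter than the summed exons of its gene would read low. Myl3, the essential light chain, had a mean of 5.23 log2 FPKM over all libraries, Tpm3, the slow tropomyosin, 2.41, and Myl2, the regulatory light chain, 2.17. The troponins were lower, with Tnnc1, the calcium-binding subunit, at 1.68, Tnnt1, the tropomyosin-binding subunit, at 1.45 and Tnni1, the inhibitory subunit, at -0.34. At the median depth these means stand on about 1734 reads for Myl3, 729 for Tpm3, 197 for Myl2, 136 for Tnnt1, 75.1 for Tnnc1 and 64.0 for Tnni1. Tnni1 lay under the minimum mean of 0 log2 FPKM set for the tests, so 5 of the 6 were tested among 9862 genes. Tests of Tnni1 are from the same fit over all 14413 genes. All tests of level are limma tests, two-sided, of the 24 h mean with time of day and sex in the model, with Benjamini-Hochberg adjustment over all genes tested and a threshold of 0.05.

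Beside their fast counterparts 5 of the 6 slow genes were minor, and the pair of Tnnc1 could not be read. Myl3 made up a median of 0.658 to 1.49% of the summed FPKM of Myl3 and Myl1, by group. Tpm3 made up 0.194 to 0.306% of Tpm3 and Tpm1, and Myl2 0.0200 to 0.111% of Myl2 and Mylpf. Tnnt1 made up 0.0146 to 0.0334% of Tnnt1 and Tnnt3, and Tnni1 0.0120 to 0.0274% of Tnni1 and Tnni2. Myh7, the slow myosin heavy chain, made up 0.00194 to 0.00877% of the 4 adult heavy chains. These ranges cover all groups, Br-RE and RE-RE among them although those were centred apart. The ends for Myh7 were Br-RE at 10 weeks and RE-RE at 26 weeks. Among Mu-RE, KO and WT groups the Myh7 medians ran from 0.00214 to 0.00819%. Tnnc1 made up a median of 44.9 to 76.1% of Tnnc1 and Tnnc2, but 592 of the 800 exon bases of Tnnc2 overlap Ube2c on the other strand, so that pair is not drawn and the level of Tnnc2 is uncertain.

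**Figure D1:**
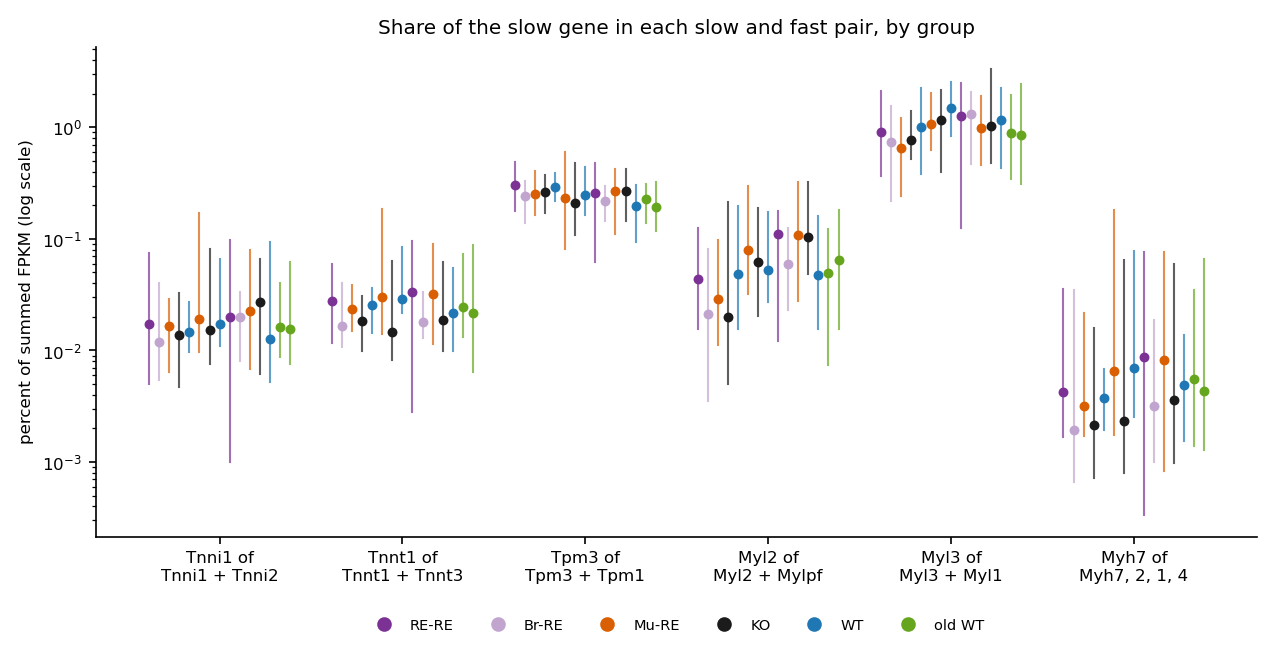
Share of the slow gene in the summed FPKM of its slow and fast pair (percent, log scale), with the median (point) and the lowest to highest library (line) of each of 15 groups; within a pair the groups run from 10 weeks through 26 weeks TRF and 26 weeks ALF to old TRF and old ALF. Myl3 is the largest share, with group medians of 0.658 to 1.49%, and Myh7 the smallest, with 0.00194 to 0.00877%. Both ranges include the Br-RE and RE-RE groups, whose libraries were centred apart.

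Of the 6 genes, 5 varied strongly between mice of the same group. The residual SD over all 352 libraries was 0.81 log2 units for Tnni1, 0.64 for Tnnt1, 0.82 for Tnnc1, 0.92 for Myl2 and 0.55 for Myl3, against a median of 0.25 for the tested genes. These SDs stand at the 98.2, 96.5, 98.2, 98.5 and 94.7 percentile of the tested genes, and that of Tpm3, 0.29, at the 67.7 percentile. Tnni1 is not itself among the tested genes. Among all 14413 genes, with a median SD of 0.30, the percentiles were 85.8 for Tnni1, 81.8 for Tnnt1, 86.0 for Tnnc1, 87.3 for Myl2, 78.2 for Myl3 and 49.1 for Tpm3. Among the fast counterparts Mylpf stood at the 85.8, Tnni2 at the 73.9 and Myl1 at the 53.0 percentile of the tested genes. Tpm1 stood at the 46.4 and Tnnt3 at the 27.7 percentile. Tnnc2, whose level is uncertain, stood at the 92.8 percentile.

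Tnni1 averaged -0.56 ± 0.83 log2 FPKM (SD) in RE-RE, -0.94 ± 0.73 in Br-RE, -0.60 ± 0.55 in Mu-RE, -0.84 ± 0.65 in KO and -0.82 ± 0.42 in WT muscle at 10 weeks. At 26 weeks it averaged 0.43 ± 1.19 in Mu-RE, -0.36 ± 0.89 in KO and -0.27 ± 0.57 in WT under TRF, and 0.08 ± 1.11 in RE-RE, -0.24 ± 0.61 in Br-RE, 0.12 ± 0.93 in Mu-RE, 0.19 ± 0.89 in KO and -0.57 ± 0.81 in WT under ALF. In old WT muscle it averaged -0.51 ± 0.63 under TRF and -0.31 ± 0.84 under ALF. Since Br-RE and RE-RE libraries were centred apart, only the Mu-RE, KO and WT groups are ordered here and for the genes that follow. Among them the highest mean was that of Mu-RE TRF and the lowest that of KO at 10 weeks, and without the RE-RE library that stood apart the RE-RE mean at 26 weeks was 0.24 ± 0.81.

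Tnnt1 averaged 1.54 ± 0.50 log2 FPKM in RE-RE, 0.89 ± 0.47 in Br-RE, 1.41 ± 0.43 in Mu-RE, 1.01 ± 0.37 in KO and 1.24 ± 0.38 in WT muscle at 10 weeks. At 26 weeks it averaged 2.20 ± 0.99 in Mu-RE, 0.96 ± 0.83 in KO and 1.78 ± 0.46 in WT under TRF, and 2.03 ± 0.90 in RE-RE, 1.08 ± 0.44 in Br-RE, 1.85 ± 0.74 in Mu-RE, 1.18 ± 0.66 in KO and 1.48 ± 0.57 in WT under ALF. In old WT muscle it averaged 1.53 ± 0.55 under TRF and 1.58 ± 0.81 under ALF. Among Mu-RE, KO and WT, Mu-RE TRF was again the highest group and KO TRF the lowest, and the RE-RE mean at 26 weeks was 2.15 ± 0.68 without the library that stood apart.

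Tnnc1 averaged 1.68 ± 0.83 log2 FPKM in RE-RE, 0.92 ± 0.74 in Br-RE, 1.68 ± 0.61 in Mu-RE, 0.90 ± 0.60 in KO and 1.30 ± 0.39 in WT muscle at 10 weeks. At 26 weeks it averaged 2.71 ± 1.18 in Mu-RE, 1.30 ± 0.99 in KO and 1.91 ± 0.74 in WT under TRF, and 2.51 ± 0.99 in RE-RE, 1.25 ± 0.52 in Br-RE, 2.32 ± 1.05 in Mu-RE, 1.59 ± 0.87 in KO and 1.61 ± 0.70 in WT under ALF. In old WT muscle it averaged 1.63 ± 0.72 under TRF and 1.72 ± 0.97 under ALF. In the same order Tnnc1 was highest in Mu-RE TRF, like the other troponins, and lowest in KO at 10 weeks, and the RE-RE mean at 26 weeks was 2.65 ± 0.77 without the library that stood apart.

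Tpm3 averaged 2.64 ± 0.18 log2 FPKM in RE-RE, 2.31 ± 0.20 in Br-RE, 2.53 ± 0.18 in Mu-RE, 2.44 ± 0.23 in KO and 2.47 ± 0.16 in WT muscle at 10 weeks. At 26 weeks it averaged 2.62 ± 0.53 in Mu-RE, 2.11 ± 0.31 in KO and 2.51 ± 0.22 in WT under TRF, and 2.63 ± 0.42 in RE-RE, 2.11 ± 0.20 in Br-RE, 2.48 ± 0.32 in Mu-RE, 2.29 ± 0.30 in KO and 2.26 ± 0.29 in WT under ALF. In old WT muscle it averaged 2.40 ± 0.24 under TRF and 2.30 ± 0.35 under ALF. Of the Mu-RE, KO and WT groups Mu-RE TRF was the highest and KO TRF the lowest, and the RE-RE mean at 26 weeks was 2.68 ± 0.35 without the library that stood apart.

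Myl2 averaged 1.61 ± 0.88 log2 FPKM in RE-RE, 0.95 ± 1.02 in Br-RE, 1.25 ± 0.76 in Mu-RE, 1.04 ± 1.23 in KO and 1.58 ± 1.08 in WT muscle at 10 weeks. At 26 weeks it averaged 3.16 ± 1.09 in Mu-RE, 3.13 ± 0.98 in KO and 1.95 ± 0.59 in WT under TRF, and 2.90 ± 0.79 in RE-RE, 2.69 ± 0.62 in Br-RE, 3.01 ± 0.70 in Mu-RE, 3.53 ± 0.76 in KO and 1.98 ± 0.81 in WT under ALF. In old WT muscle it averaged 1.43 ± 1.08 under TRF and 2.30 ± 0.94 under ALF. Of the Mu-RE, KO and WT groups KO at 26 weeks ALF was the highest and KO at 10 weeks the lowest, and the RE-RE mean at 26 weeks was 3.02 ± 0.55 without the library that stood apart.

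Myl3 averaged 5.06 ± 0.60 log2 FPKM in RE-RE, 4.81 ± 0.56 in Br-RE, 4.76 ± 0.46 in Mu-RE, 4.87 ± 0.31 in KO and 5.19 ± 0.58 in WT muscle at 10 weeks. At 26 weeks it averaged 5.49 ± 0.42 in Mu-RE, 5.45 ± 0.54 in KO and 5.66 ± 0.40 in WT under TRF, and 5.41 ± 0.81 in RE-RE, 5.60 ± 0.50 in Br-RE, 5.27 ± 0.45 in Mu-RE, 5.44 ± 0.55 in KO and 5.70 ± 0.56 in WT under ALF. In old WT muscle it averaged 4.86 ± 0.64 under TRF and 4.98 ± 0.67 under ALF. In that order the highest mean was that of WT at 26 weeks ALF and the lowest that of Mu-RE at 10 weeks, and the RE-RE mean at 26 weeks was 5.52 ± 0.59 without the library that stood apart. For each of the 6 genes, when all 15 means are put in order, 0 of the 14 gaps between neighbours exceeded the SD between single mice. That order includes Br-RE and RE-RE although they were centred apart. With so many gaps in one span the count says little, and it does not test whether the means differ.

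**Figure D2:**
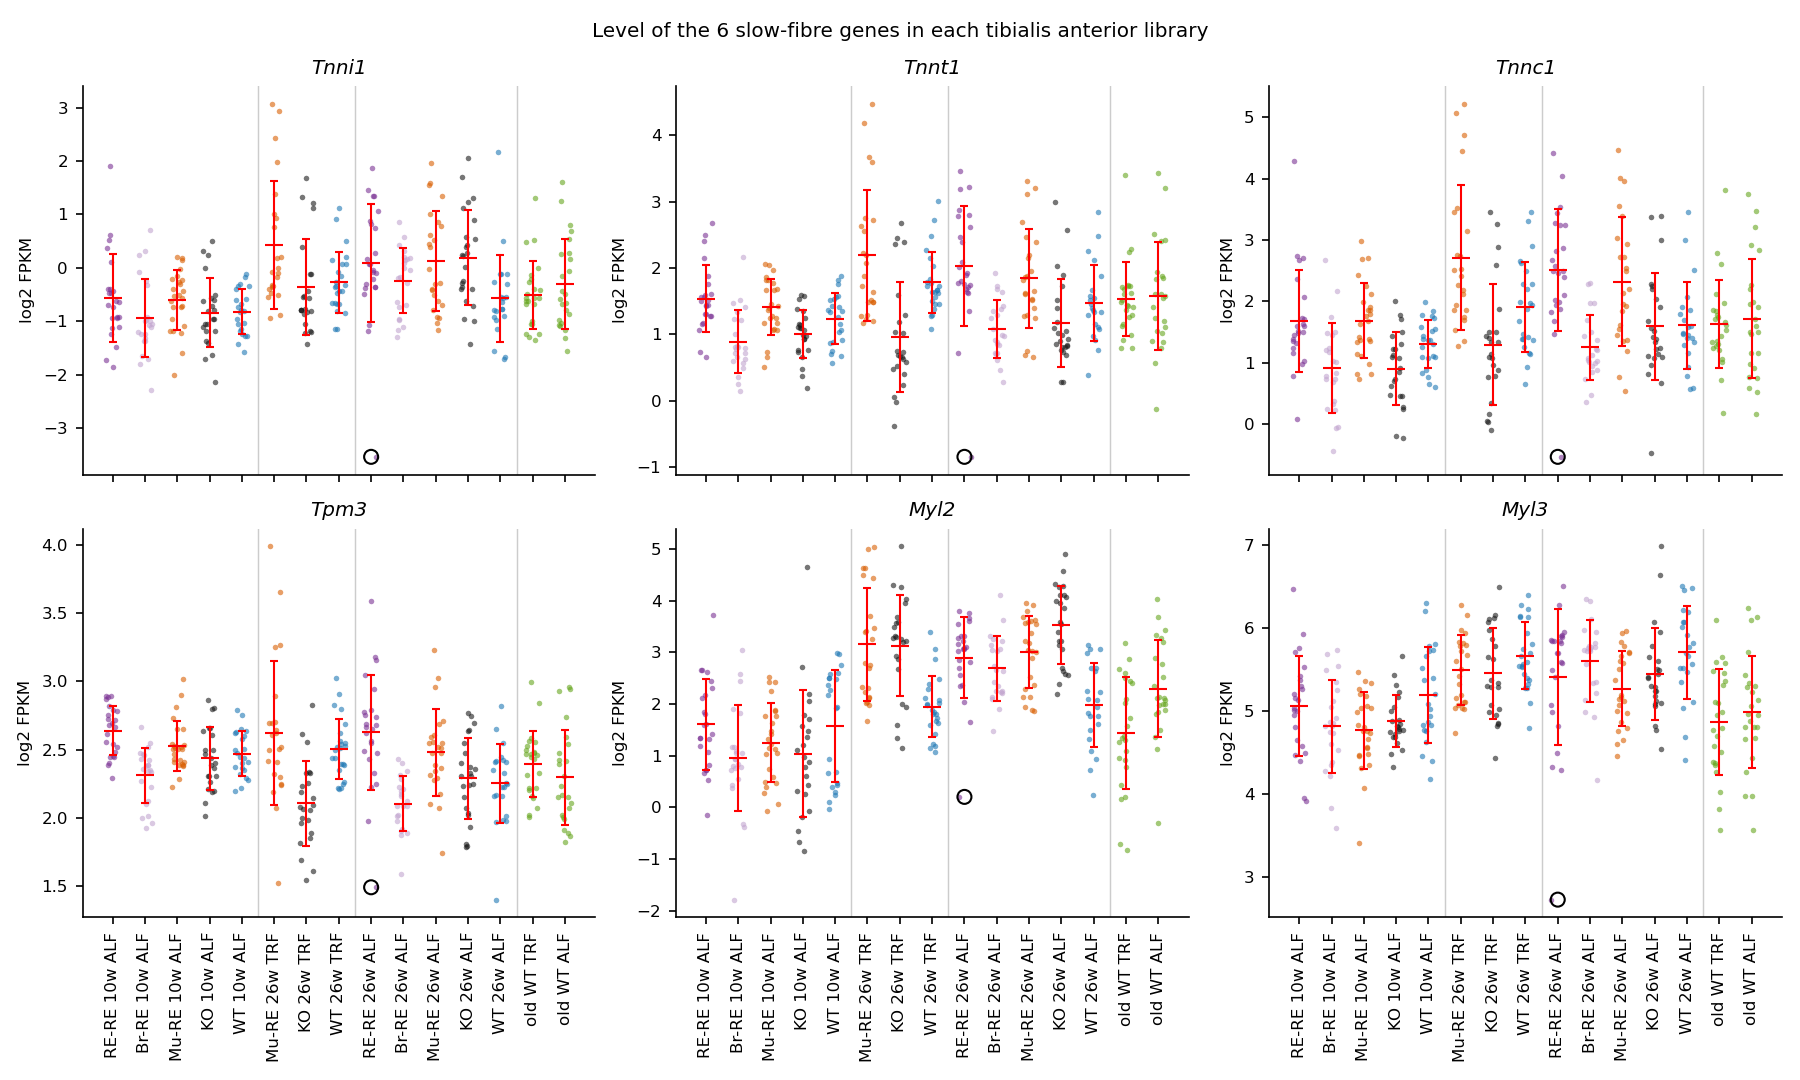
Level of each gene (log2 FPKM) in every library of the 15 groups, with the group mean and SD in red; the RE-RE library of 26 weeks that stood apart is circled. Among the Mu-RE, KO and WT groups Myl2 has its highest mean, 3.53, in KO muscle at 26 weeks ALF, and Tnnt1 and Tnnc1 have theirs, 2.20 and 2.71, in Mu-RE muscle under TRF.

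The Mu-RE against KO and RE-RE against Br-RE comparisons ask what Cre in muscle adds. Tnnt1 and Tnnc1 were higher in all 5 comparisons of mice with Hsa-Cre against mice without it, and Tpm3 was higher in 3 of them. Tnni1, Myl2 and Myl3 passed the test in none of the 5. Under TRF, 3 of the 5 tested members rose in Mu-RE against KO muscle, where 36.5% of all tested genes changed in either direction. At 10 weeks 2 of 5 rose, where 34.6% of genes changed, and at 26 weeks ALF 2 of 5 rose, where 33.9% changed. In RE-RE against Br-RE muscle 3 of 5 rose at 10 weeks, where 32.2% changed, and 3 of 5 at 26 weeks, where 35.3% changed.

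Tnnt1 under TRF had a lowest, median and highest level of 1.17, 1.87 and 4.48 log2 FPKM in Mu-RE muscle, against -0.38, 0.69 and 2.69 in KO muscle. All 23 Mu-RE libraries lay above the KO median and 6 of them above every KO library, so the groups overlapped. The difference was 1.21 ± 0.26 log2 units (SE), with a limma adjusted p of 0.00031. Tnnt1 differed by 0.40 ± 0.11 at 10 weeks (adjusted p = 0.0027) and by 0.68 ± 0.20 at 26 weeks ALF (adjusted p = 0.0053). In RE-RE against Br-RE muscle Tnnt1 differed by 0.65 ± 0.14 at 10 weeks (adjusted p = 0.0002) and by 0.95 ± 0.20 at 26 weeks (adjusted p = 0.00023). At 26 weeks the Tnnt1 levels were -0.84, 1.91 and 3.46 in RE-RE and 0.29, 0.99 and 1.92 in Br-RE muscle, with 12 of 24 RE-RE libraries above every Br-RE library. The lowest RE-RE value was that of the library that stood apart, and without it the difference was 1.07 log2 units (adjusted p = 1.4e-06).

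Tnnc1 under TRF had a lowest, median and highest level of 1.27, 2.41 and 5.22 log2 FPKM in Mu-RE muscle, against -0.09, 1.14 and 3.46 in KO muscle. Again all 23 Mu-RE libraries lay above the KO median, and 5 lay above every KO library. Tnnc1 differed by 1.37 ± 0.32 log2 units (adjusted p = 0.00061) under TRF, by 0.76 ± 0.16 at 10 weeks (adjusted p = 0.00022) and by 0.76 ± 0.27 at 26 weeks ALF (adjusted p = 0.023). In RE-RE against Br-RE muscle Tnnc1 differed by 0.75 ± 0.23 at 10 weeks (adjusted p = 0.008). At 26 weeks its levels were -0.53, 2.49 and 4.42 in RE-RE and 0.36, 1.10 and 2.30 in Br-RE muscle. The Tnnc1 difference there was 1.26 ± 0.23 log2 units (adjusted p = 2.4e-05), and 1.38 without the library that stood apart. In Mu-RE against KO muscle the Tnnt1 call of 10 weeks ended with one fit over all groups (adjusted p = 0.0908), and at 26 weeks ALF the Tnnt1 call ended without replicate 2 of each time (adjusted p = 0.0949) and the Tnnc1 call without replicate 2 (adjusted p = 0.217) or 3 (adjusted p = 0.0659). The Tnnc1 call in RE-RE against Br-RE muscle at 10 weeks ended without replicate 4 (adjusted p = 0.0627). Wherever a call is given without replicate 1, 2, 3 or 4, the mouse of that rank by number was left out in each group and time.

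Tpm3 under TRF had a lowest, median and highest level of 1.53, 2.52 and 3.99 log2 FPKM in Mu-RE muscle, against 1.55, 2.08 and 2.82 in KO muscle. It was 0.50 ± 0.13 log2 units higher in Mu-RE muscle (adjusted p = 0.0013), with 21 of 23 Mu-RE libraries above the KO median. Tpm3 was also higher in RE-RE than in Br-RE muscle, by 0.33 ± 0.06 at 10 weeks (adjusted p = 8e-06) and by 0.52 ± 0.10 at 26 weeks (adjusted p = 2e-05). The range of the 26-week groups was 1.49 to 3.59 in RE-RE and 1.59 to 2.44 in Br-RE muscle, with 19 of 24 RE-RE libraries above every Br-RE library. In Mu-RE against KO muscle under ALF the Tpm3 difference was 0.08 (95% interval -0.03 to 0.19) at 10 weeks and 0.18 (0.01 to 0.35, adjusted p = 0.1) at 26 weeks.

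Tnni1, the least abundant of the troponins, differed between Mu-RE and KO muscle by 0.76 ± 0.31 log2 units under TRF (adjusted p = 0.056). The 95% interval of the Tnni1 difference was -0.10 to 0.53 at 10 weeks and -0.56 to 0.45 at 26 weeks ALF. In RE-RE against Br-RE muscle it was -0.06 to 0.82 at 10 weeks and -0.20 to 0.83 at 26 weeks. At 10 weeks both Tnni1 intervals held the size of the Tnnt1 difference in the same comparison, and at 26 weeks ALF neither did. Myl2 differed by -0.53 ± 0.21 in Mu-RE against KO muscle at 26 weeks ALF, on the threshold (adjusted p = 0.05002), and by 0.65 ± 0.28 in RE-RE against Br-RE muscle at 10 weeks (adjusted p = 0.072). Myl3 differed by at most 0.26 log2 units in either direction over the 5 comparisons.

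**Figure D3:**
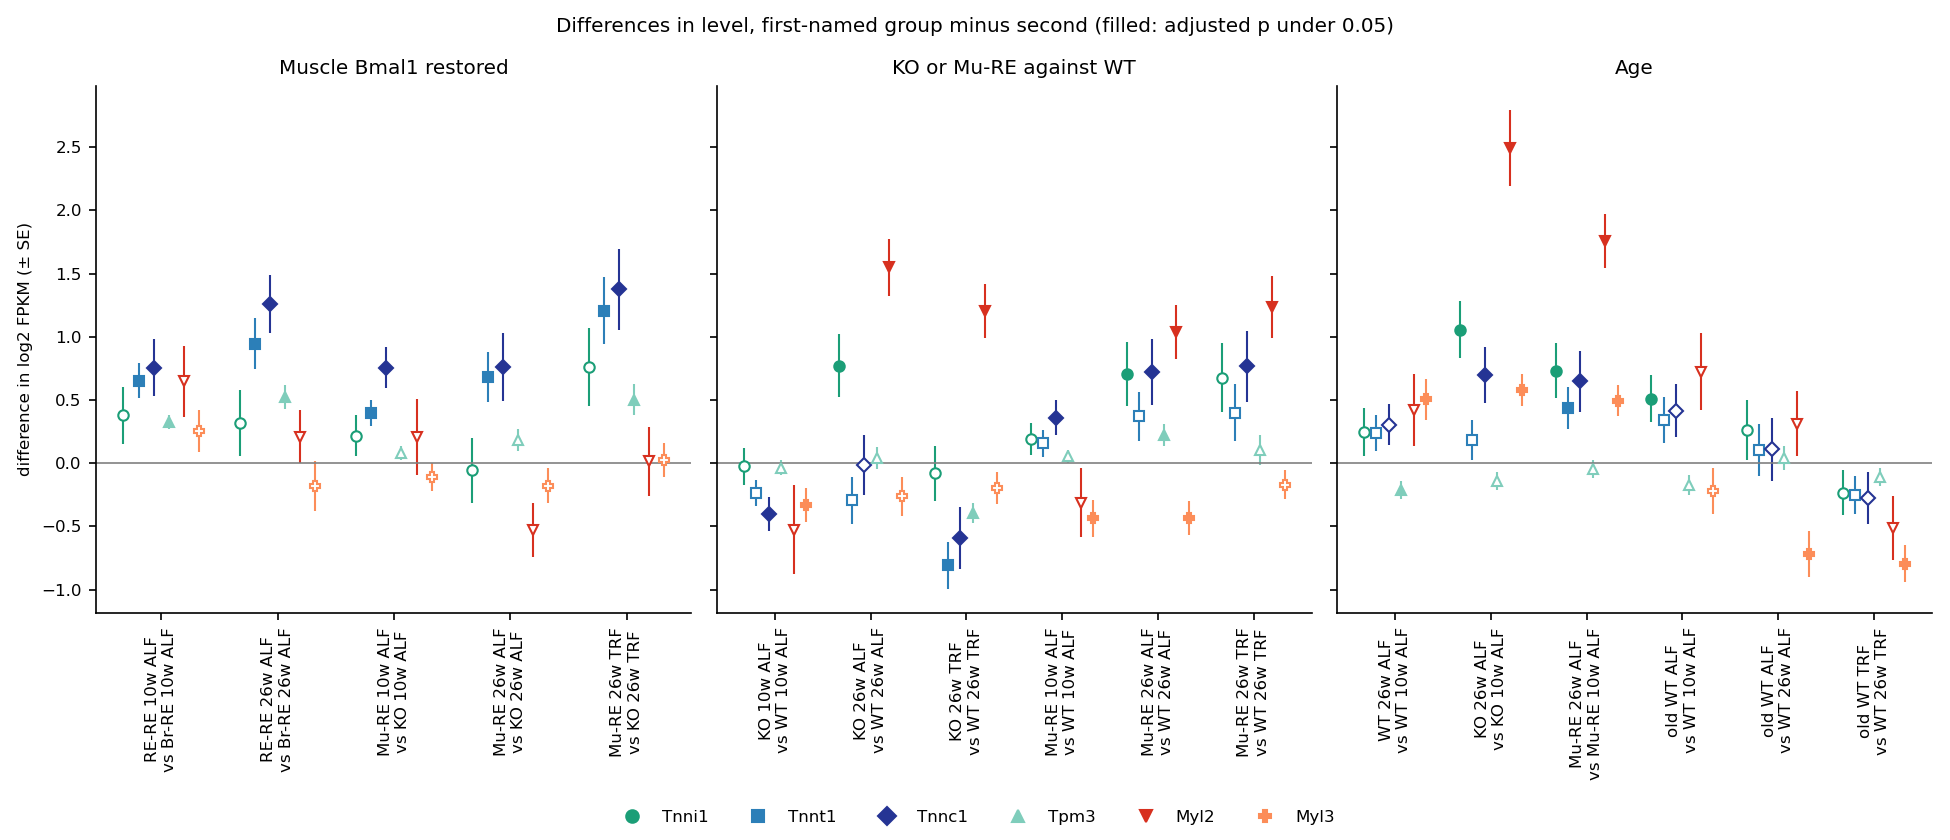
Differences in level (log2 FPKM, first-named group minus second, ± SE) of the 6 genes in comparisons of mice with and without Hsa-Cre, of KO or Mu-RE against WT, and of ages; filled symbols have a limma adjusted p under 0.05. Tnnt1 and Tnnc1 are filled in all 5 comparisons on the left, and Myl2 stands apart in the middle and right panels, with 1.55 in KO against WT at 26 weeks ALF and 2.49 in KO at 26 against 10 weeks.

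Of the 6 genes, Myl2 had the largest difference between KO and WT muscle. At 26 weeks ALF its lowest, median and highest levels were 2.19, 3.57 and 4.91 log2 FPKM in KO and 0.24, 2.01 and 3.14 in WT muscle, or a median of 11.9 FPKM in KO and 4.02 FPKM in WT. All 24 KO libraries lay above the WT median and 17 lay above every WT library. Myl2 was higher by 1.55 ± 0.22 log2 units at 26 weeks ALF (limma adjusted p = 2.2e-07) and by 1.21 ± 0.21 at 26 weeks TRF (adjusted p = 8.8e-06). At 10 weeks Myl2 went the other way without passing the test, with levels of -0.84, 0.98 and 4.66 in KO and -0.03, 1.94 and 2.996 in WT muscle and a difference of -0.53 ± 0.35 (adjusted p = 0.24). The KO to WT difference of Myl2 at 26 weeks exceeded that at 10 weeks by 2.08 ± 0.42 log2 units (interaction, adjusted p = 0.00015), a test in which 18.8% of genes were called and no other tested member was. Myl2 shares 60 exon bases with Ccdc63 on the other strand, and no source used here says whether the counting used strand.

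Among the thin-filament genes, Tnni1 alone passed the test with Myl2 at 26 weeks ALF. Tnni1 was 0.77 ± 0.25 log2 units higher in KO than in WT muscle at 26 weeks ALF (adjusted p = 0.011 over 14413 genes, of which 42.0% were called), with 20 of 24 KO libraries above the WT median. This call ended without replicate 1 (adjusted p = 0.0573) or 2 (adjusted p = 0.0643) of each time. The Tnni1 difference at 26 weeks exceeded that at 10 weeks by 0.81 ± 0.30 (adjusted p = 0.053). At 26 weeks ALF the differences of Tnnt1, Tnnc1, Tpm3 and Myl3 were -0.29, -0.02, 0.04 and -0.26 and missed the threshold. In all, 1 of the 5 tested members changed at 26 weeks ALF, where 46.3% of all tested genes did.

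Under TRF Tnnt1, Tnnc1 and Tpm3 were lower in KO than in WT muscle while Myl2 was higher, so 4 of 5 tested members changed, where 51.8% of genes did. Tnnt1 levels were -0.38, 0.69 and 2.69 in KO and 1.08, 1.67 and 3.01 in WT muscle, with 16 of 23 KO libraries below every WT library. Tnnt1 fell by 0.81 ± 0.18 log2 units (adjusted p = 0.00033). Tpm3 levels were 1.55, 2.08 and 2.82 in KO and 2.21, 2.51 and 3.03 in WT muscle, and Tpm3 fell by 0.40 ± 0.08 (adjusted p = 4.9e-05), with 15 of 23 KO libraries below every WT library. Tnnc1 fell by 0.59 ± 0.24 (adjusted p = 0.039), a call that ended with the replicate block (adjusted p = 0.0771), on the log2(FPKM + 1) scale (adjusted p = 0.058) and without replicates 1, 3 or 4 (adjusted p = 0.122 to 0.141). Tnni1 differed by -0.08 (95% interval -0.51 to 0.35).

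At 10 weeks Tnnc1 and Myl3 were lower in KO than in WT muscle, 2 of 5 tested members, where 41.8% of genes changed. Tnnc1 levels were -0.23, 0.91 and 2.00 in KO and 0.61, 1.37 and 1.99 in WT muscle, and Tnnc1 fell by 0.40 ± 0.14 log2 units (adjusted p = 0.016), with 7 of 23 KO libraries below every WT library. Myl3 fell by 0.33 ± 0.13 (adjusted p = 0.045). Both calls ended with one fit over all groups, with an adjusted p of 0.191 for Tnnc1 and 0.0958 for Myl3, and without replicate 1 or 2 of each time. Tnnt1 differed by -0.24 ± 0.10 (adjusted p = 0.056).

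In Mu-RE muscle set against WT, Myl2 was higher at 26 weeks under both feeding regimes. Its levels were 1.87, 3.12 and 3.96 log2 FPKM in Mu-RE and 0.24, 2.01 and 3.14 in WT muscle under ALF, and 1.66, 2.79 and 5.05 in Mu-RE and 1.06, 1.87 and 3.39 in WT muscle under TRF. Myl2 was 1.04 ± 0.21 log2 units higher under ALF (limma adjusted p = 0.00035) and 1.23 ± 0.25 higher under TRF (adjusted p = 0.0002). At 26 weeks ALF, 4 of 5 tested members changed, where 30.8% of genes did. Tnnc1 was 0.72 ± 0.26 higher (adjusted p = 0.032), Tpm3 0.22 ± 0.09 higher (adjusted p = 0.047) and Myl3 0.43 ± 0.14 lower (adjusted p = 0.014). Tnni1 was 0.71 ± 0.25 higher (adjusted p = 0.034 over 14413 genes, of which 26.1% were called). Under TRF 2 of 5 changed, where 32.1% did, the other being Tnnc1 at 0.77 ± 0.28 higher (adjusted p = 0.033). At 10 weeks 2 of 5 changed, where 26.5% did, with Tnnc1 0.36 ± 0.14 higher (adjusted p = 0.046) and Myl3 0.44 ± 0.15 lower (adjusted p = 0.021). Of these Mu-RE against WT calls, the Myl2 calls held under every alternative, and each of the others ended without at least 1 of replicates 1 to 4. The Mu-RE, KO and WT groups are shared between these comparisons, which are therefore not independent of each other.

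Age went with higher Myl2 in KO and Mu-RE muscle. At 26 weeks against 10 weeks, under ALF, Myl2 levels were 2.19, 3.57 and 4.91 log2 FPKM in KO muscle of 26 weeks and -0.84, 0.98 and 4.66 in KO muscle of 10 weeks. Myl2 was 2.49 ± 0.30 log2 units higher at 26 weeks in KO muscle (limma adjusted p = 3e-08) and 1.76 ± 0.21 higher in Mu-RE muscle (adjusted p = 1.9e-08). In WT muscle the difference was 0.42 ± 0.29 (adjusted p = 0.25). All 24 KO libraries of 26 weeks lay above the median of 10 weeks, and 1 lay above the highest, a KO library of 10 weeks at 4.66. Myl3 rose in all 3 genotypes, by 0.58 ± 0.13 in KO (adjusted p = 0.00066), 0.49 ± 0.12 in Mu-RE (adjusted p = 0.0016) and 0.51 ± 0.16 in WT muscle (adjusted p = 0.013). The WT call of Myl3 ended with a covariate for gene length (0.36, adjusted p = 0.177) and without replicates 1, 2 or 4.

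Tnni1 was 1.06 ± 0.22 log2 units higher at 26 than at 10 weeks in KO muscle (adjusted p = 0.00046), where 23% of 14413 genes changed, and 0.73 ± 0.22 higher in Mu-RE muscle (adjusted p = 0.0088), where 28.7% did. Tnnc1 was 0.70 ± 0.22 higher in KO (adjusted p = 0.015) and 0.65 ± 0.24 higher in Mu-RE muscle (adjusted p = 0.033). Tnnt1 was 0.44 ± 0.17 higher in Mu-RE muscle (adjusted p = 0.041) and differed by 0.18 in KO (95% interval -0.12 to 0.49). Tpm3 was 0.22 ± 0.07 lower at 26 weeks in WT muscle (adjusted p = 0.016). In all, 3 of 5 tested members rose in KO, where 25.3% of genes changed, 4 of 5 rose in Mu-RE, where 32.4% changed, and 2 of 5 changed in WT muscle, where 37.0% did. The Tnnc1 calls, the Tnnt1 call and the WT call of Tpm3 each ended without at least 1 of replicates 1 to 4, as did the Tnni1 call in Mu-RE.

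Set against WT muscle of 26 weeks, old WT muscle had lower Myl3. Under ALF Myl3 levels were 3.56, 4.96 and 6.23 log2 FPKM in old and 4.41, 5.73 and 6.50 in 26-week muscle, with 3 of 24 old libraries above the median of 26 weeks. Under TRF they were 3.56, 4.87 and 6.10 in old and 4.80, 5.57 and 6.40 in 26-week muscle, with 11 of 24 old libraries below every library of 26 weeks. Myl3 fell by 0.72 ± 0.18 log2 units under ALF (limma adjusted p = 0.0038), where 24.2% of genes changed, and by 0.80 ± 0.15 under TRF (adjusted p = 0.00015), where 9.84% changed. It was the only 1 of 5 tested members called in either comparison, and the ALF call missed the threshold without replicate 1 (adjusted p = 0.0514) or 2 (adjusted p = 0.0737). Myl3 shares 95 exon bases with Pth1r on the other strand. Against WT muscle of 10 weeks, 0 of 5 tested members changed in old ALF muscle, where 41.5% of genes did. Tnni1 was 0.51 ± 0.19 higher there (adjusted p = 0.026), where 37.7% of 14413 genes changed, and this call ended under 6 of 12 alternatives. Myl2 differed by 0.72 ± 0.31 (adjusted p = 0.054) and Myl3 by -0.22 ± 0.18 (adjusted p = 0.345).

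Feeding changed 1 member in 1 genotype. In WT muscle at 26 weeks Tpm3 levels were 2.21, 2.51 and 3.03 log2 FPKM under TRF and 1.40, 2.25 and 2.82 under ALF. Tpm3 was 0.25 ± 0.08 log2 units higher under TRF (limma adjusted p = 0.0092), the 1 of 5 tested members called, where 41.0% of genes changed. Without replicate 1 or 2 of each time it missed the threshold (adjusted p = 0.0806 and 0.0696), as did the interaction of feeding and KO genotype for Tpm3 (adjusted p = 0.0902 and 0.0677). No tested member changed with feeding in KO, where 14.2% of genes did, in Mu-RE, where 16.9% did, or in old WT muscle, where 0.142% did. Over these 3 comparisons the unadjusted p was under 0.05 for 3 results, those of Tnni1 and Tpm3 in KO muscle and of Myl2 in old muscle, the last at -0.87 ± 0.30 (adjusted p = 0.17). The effect of feeding on Tpm3 differed between KO and WT muscle by -0.43 ± 0.12 (interaction, adjusted p = 0.0053), in a test that called 27.5% of genes, and Tnni1 missed that test at -0.86 ± 0.33 (adjusted p = 0.056). No tested member was called when the effect of feeding in Mu-RE or in old WT muscle was set against that in young WT, where 34.8% and 2.1% of genes were called.

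No member was called rhythmic over 24 h. Over 90 tests, 6 members in 15 groups, limma called 0 after adjustment, and 2 had an unadjusted p under 0.05, both in KO muscle under TRF. They were Myl3, with a fitted amplitude of 0.39 log2 units (adjusted p = 0.0999), and Myl2, with 0.74 (adjusted p = 0.101). Under the alternatives 1 of 920 such tests was called, that of Myl3 in WT TRF without replicate 4. The fitted amplitudes of the 90 ran from 0.01 to 0.744 log2 units with a median of 0.219. Across all tested genes the share called rhythmic was 37.8% in WT TRF and 29.0% in Br-RE at 10 weeks. It was 6.97% in Mu-RE TRF, 6.20% in KO TRF, 5.84% in WT at 10 weeks, 5.71% in old TRF and 1.41% in old ALF. It was 1.04% in WT, 0.760% in RE-RE and 0.690% in Br-RE at 26 weeks ALF, 0.588% in RE-RE at 10 weeks, and 0.0710% in both Mu-RE and KO at 10 weeks. In Mu-RE and KO at 26 weeks ALF it was 0%. Of 24 tests of a rhythm difference 0 were called and 0 had an unadjusted p under 0.05, and 0 of 249 were called under the alternatives. These set KO against WT at 10 weeks, where 0.517% of genes were called, and at 26 weeks, where 0.172% were, and RE-RE against Br-RE at 10 weeks, where 0.152% were, and at 26 weeks, where 0.0913% were. In simulated data drawn on the WT libraries of 26 weeks ALF, over 9862 genes, 85% of rhythms of 0.5 log2 units were called. The residual SD of every member exceeded the median of the tested genes.

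Within groups the troponins varied together from mouse to mouse. Taken as distances from each group's level, with time of day and sex fitted, over all 352 libraries, Pearson's r was 0.87 between Tnnt1 and Tnnc1, 0.86 between Tnni1 and Tnnc1 and 0.84 between Tnni1 and Tnnt1, and r was positive in 15 of 15 groups for each pair. Tpm3 followed Tnnt1 at 0.75, Tnnc1 at 0.67 and Tnni1 at 0.61. The light chains were more loosely tied. Myl2 had an r of 0.55 with Tnni1, 0.54 with Tnnc1 and 0.46 with Tnnt1, and Myl3 had 0.37 with Tnnt1, 0.33 with Tnnc1 and 0.32 with Tnni1. Myl2 and Myl3 had an r of 0.41, Myl3 and Tpm3 of 0.23, and Myl2 and Tpm3 of 0.20, the last pair running from -0.54 to 0.66 across groups. Values of 1 library share its RNA preparation and depth, so these are descriptions and carry no p. The r of the members with depth lay between -0.035 and 0.062 over 351 libraries.

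**Figure D4:**
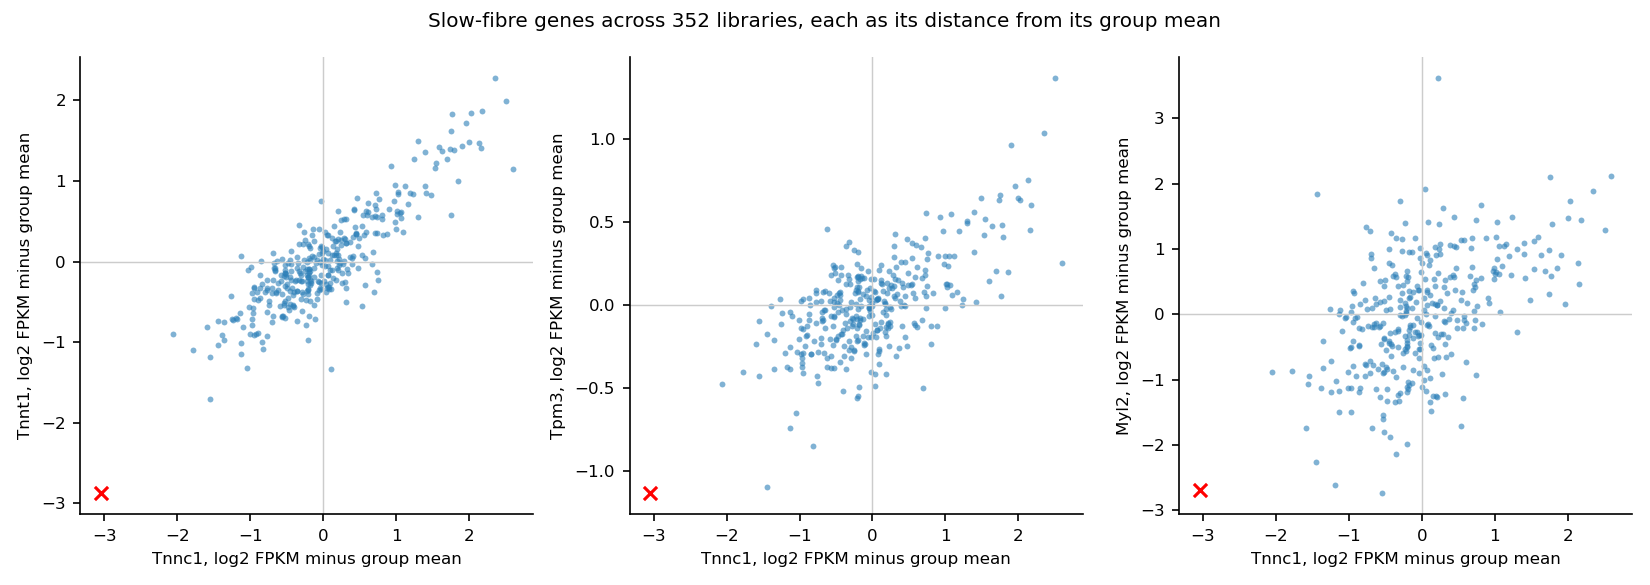
Distance of each of 352 libraries from its group mean (log2 FPKM) in Tnnc1 on the horizontal axes and in Tnnt1, Tpm3 and Myl2 on the vertical axes; the cross is the RE-RE library that stood apart. With time of day and sex taken out, r with Tnnc1 is 0.87 for Tnnt1, 0.67 for Tpm3 and 0.54 for Myl2.

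The RE-RE library that stood apart was the lowest of all 352 in the mean of the 6 members, at -0.083 log2 FPKM. Its distance from the mean of the others of its group was -3.78 log2 units in Tnni1, -3.18 in Tnnc1, -2.999 in Tnnt1, -2.81 in Myl2, -2.80 in Myl3 and -1.19 in Tpm3, and Myh7 was at -4.81 log2 FPKM. Its depth was 24.74 M reads. Of the 6 highest libraries in that mean, 4 were Mu-RE TRF muscle, 3 of them killed at 0 h, with means of 3.76, 4.04 and 4.52, and the other mouse of that group and time had 2.51. Leaving out any 1 library moved none of the 45 called level differences by more than 1.26-fold or changed its sign.

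The gene most like the 6 was Atp2a2, the calcium pump of slow fibres, whose r with the mean of the members was 0.59 over the 351 other libraries. It was the 1 gene of 9857 ranked with an r of at least 0.5, where the median was 0.01. Idh2 and Etfb, which encode proteins of the mitochondrial matrix, followed at 0.41, then Prdx2, Pxmp2 and Cuedc2 at 0.40, and Parl, Fahd2a, Gm11613 and Mrpl28 between 0.38 and 0.39. The lowest were Kat6a at -0.38, Best3 at -0.36, and Ago2, Atp11a and Frs2 at -0.35. Myh7, under the minimum level and so not ranked, had an r of 0.78. The mean of the fast counterparts, with the uncertain Tnnc2 among them, had an r of 0.21. Lists of markers of adipocytes, tendon, nerve, smooth muscle, macrophages, endothelium, fibroblasts, satellite cells and red blood cells had r values of -0.08 to 0.08 with the member mean, and none of their genes was at 0 throughout. Their levels did differ between groups: the mean of the fibroblast list ran from 1.90 log2 FPKM in old ALF to 4.21 in WT muscle at 10 weeks, that of the macrophage list from -0.41 in Mu-RE TRF to 1.28 in WT at 10 weeks, and that of the adipocyte list from -1.50 in WT at 26 weeks ALF to -0.36 in Mu-RE TRF. Their part in the differences of the slow genes was not tested.

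A list of 10 other slow-fibre genes had, in its mean, an r of 0.66 with the members within groups, the highest of the lists looked at. Taken singly, r was 0.78 for Myh7, 0.59 for Atp2a2 and 0.38 for Myoz2, but 0.12 to 0.21 for the rest. The fast counterparts, taken singly, had r values of 0.02 to 0.24. Between groups 8 genes of the slow list were tested. In Mu-RE against KO muscle 1 rose and 5 fell in each of the 3 comparisons, where Tnnt1 and Tnnc1 rose and 34.6, 33.9 and 36.5% of all tested genes were called at 10 weeks, 26 weeks ALF and 26 weeks TRF. The list's median difference was -0.50 log2 units under TRF, against 0.02 over all tested genes. Under TRF Casq2, the calcium store protein of slow and cardiac muscle, fell by 1.08 ± 0.09 (adjusted p = 9.98e-14), the stretch-responsive Ankrd2 by 0.82 ± 0.14 (adjusted p = 1.1e-05) and the Z-disc gene Myoz2 by 0.43 ± 0.13 (adjusted p = 0.01). Myl6b, a light chain of slow muscle, rose by 0.79 ± 0.10 (adjusted p = 1.3e-08). Myh7 was 2.02 ± 0.51 higher in Mu-RE TRF muscle (adjusted p = 0.002 over 14413 genes) and 1.84 ± 0.45 higher in RE-RE than in Br-RE muscle at 26 weeks (adjusted p = 0.0013). The same list had 1 higher and 4 lower in RE-RE against Br-RE muscle at 26 weeks, and 2 higher and 2 lower at 10 weeks, where 35.3% and 32.2% of all tested genes were called.

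In KO against WT muscle at 26 weeks 6 genes of the same list rose and 1 fell under ALF and under TRF alike, with a median difference of 1.08 and 0.93 log2 units, against 0.00 over all tested genes, of which 46.3% were called under ALF and 51.8% under TRF. Casq2 rose by 1.77 ± 0.12 under ALF (adjusted p = 7.9e-17) and Ankrd2 by 1.70 ± 0.26 (adjusted p = 5.5e-07), beside 1.55 for Myl2. Myl6b, which fell by 0.59 ± 0.09 (adjusted p = 1e-06), was the exception. Myh7 differed by 0.11 ± 0.36 under ALF (adjusted p = 0.85) and fell by 1.94 ± 0.39 under TRF (adjusted p = 6.4e-05), beside the fall of Tnnt1. Of the 6 fast counterparts, with the uncertain Tnnc2 among them, 1 rose and 2 fell under ALF, and 3 rose and 0 fell under TRF. That is 3 of 6 in each, near those shares of all tested genes. Those that rose under TRF include Mylpf, the fast partner of Myl2, by 0.98 ± 0.13 (adjusted p = 2.4e-08). Of 22 regulators of fibre type, which include activators and repressors of slow genes, 20 were tested. Of these, 1 rose and 13 fell in KO against WT muscle under TRF, and 8 rose and 0 fell in Mu-RE against KO muscle under TRF. The share of all tested genes called was 51.8% and 36.5% in these comparisons, and 8 of 20 is near the second.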

How the data were processed

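RNA of 352 whole tibialis anterior muscles was sequenced by the submitters as paired reads of 150 bases. Per the submitters' processing notes, the genome was GRCm38 and the tools were featureCounts 1.6.2, HISAT2 2.1.0, limma 3.44.1, edgeR 3.30.0, Trim Galore 0.5.0 and FastQC 0.11.8, with no role stated for each. The authors deposited a single file of log2 FPKM for 14413 genes. A pseudocount of 0.01, whose log2 is -6.64, was assumed here to lie in these values. The deposited values had been centred so that the sexes have equal means, and, at each age, so that Br-RE plus RE-RE libraries average the same as all others. That removes any mean difference between those sets, and values for Br-RE or RE-RE against another genotype are given side by side only.

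Here each comparison was fitted on its own groups with limma 3.58.1 in R 4.3.3 (version 1.17.8 of data.table), with trend and robust options, a sex term and, in every group, a level and a cosine and sine wave of 24 h. Genes with a mean log2 FPKM of at least 0 were tested (9862), with Benjamini-Hochberg adjustment over all of them. Tnni1 and Myh7, under that minimum, come from the same fit without it. No count test was run on the log2 values. Depth was recovered from the steps of low values, which were whole within 0.1 reads for 90.25% or more of those looked at in every library. Python 3.11.15 with numpy 2.4.6, pandas 2.3.3 and matplotlib 3.10.9 was used for the rest.

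The fits were tested on simulated data over 9862 genes. For RE-RE against Br-RE at 26 weeks, 92% of changes of 0.5 log2 units and 98% of changes of 1 were recovered, with 6.4% false among the calls. For KO against WT at 26 weeks ALF the shares were 91% and 95%, with 5.1% false. The changed genes were drawn from all those tested, so these shares are averages over such genes. Residual SDs of Tnni1, Tnnt1, Tnnc1, Myl2 and Myl3 were 0.55 to 0.92 log2 units, against a median of 0.25. Recovery at those SDs was not measured apart, so a missed threshold in these members does not show that no change was there.

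The members and lists were chosen with earlier results of these data known. Genes named are the 6 members, their fast counterparts, genes of the lists, and the 10 highest and 5 lowest by correlation with the member mean. Correlations use within-group residuals and carry no p. Alternatives were a filter of 1 or none, log2(FPKM + 1), time as a factor, no sex term, no trend or robust option and median-centred libraries. Others were a gene length covariate, one fit over all groups and a replicate block. The rest left out each replicate, by its rank within group and time, or the RE-RE library that stood apart. The alternatives for Tnni1 without the filter, and leaving out single libraries, were chosen after seeing the data. The labels name a mouse per library, and p-values rest on the spread between mice. Promoters are from RefSeq on GRCm38.p6.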

Additional observations from a re-analysis of the deposited data

Results flagged for a closer look

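In 7 of 78 sets of 4 or 5 mice of the same group and time, 1 mouse lay far from the others in the mean log2 FPKM of the 6 slow genes. About 1 in 20 such sets would be flagged if values were normal with equal spread, which was not tested. The mouse was high in 5 of them. Replicate 8 of Br-RE at 10 weeks, 4 h, had 2.25 against a median of 1.33 for its set. Replicate 13 of RE-RE at 10 weeks, 12 h, had 3.46 against 2.04. In Mu-RE TRF muscle replicate 12 at 8 h had 2.53 against 1.98, and replicate 20 at 16 h had 3.01 against 2.36. Replicate 8 of old ALF muscle at 4 h had 2.88 against 1.99. The mouse was low in the other sets, with 1.21 against 1.74 for replicate 1 of RE-RE at 10 weeks, 0 h, and 0.82 against 1.81 for replicate 17 of old TRF muscle at 16 h.

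For Tpm3 and Myl2 an effect differed between groups by the test of the difference itself. The effect of feeding on Tpm3 differed between KO and WT muscle by -0.43 log2 units, and the KO to WT difference of Myl2 was 2.08 log2 units larger at 26 than at 10 weeks.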

How the results depend on the processing

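Of 47 member results called, 22 stayed called under every alternative, 25 missed the threshold under at least 1, and 0 changed sign. The settings that ended most calls left out 1 mouse per group and time, by the rank of its number, so fewer samples remained. They ended 16 calls without replicate 1, 19 without replicate 2, 8 without replicate 3 and 13 without replicate 4. The gene length covariate ended 6 calls, one fit over all groups 6, no filter 3, log2(FPKM + 1) 2, median centring 2 and time as a factor 1. The causes were not tested. Dropping the sex term, the trend and robust options or the RE-RE library that stood apart, and a minimum of 1, ended 0. All 9 results with an adjusted p of 0.05 to 0.1 were called under at least 1 alternative. Of the other 94, 31 changed sign under at least 1.

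The mean difference over the 6 genes changed sign under an alternative in 4 of 25 comparisons. It was -0.026 with the gene length covariate, against 0.25, for WT at 26 against 10 weeks, and ranged over -0.083 to 0.082 for Mu-RE against WT at 10 weeks, -0.064 to 0.128 for old ALF against WT at 26 weeks, and -0.213 to 0.165 for the feeding effect in Mu-RE minus that in WT. For Mu-RE against KO under TRF it was 0.647, with a range of 0.478 to 0.805, and 0.683 with the replicate block. For KO against WT at 26 weeks ALF it was 0.299, and 0.273 with the block. Replicate numbers showed no clear pairing of the mice: same-numbered deviations had median correlations of -0.054 to 0.163 over the comparisons. At most 6 pairs in a comparison correlated best with their own number, of 23 pairs in Mu-RE against KO muscle at 26 weeks ALF. No count by chance was set beside this, and whether the numbers pair mice in some other way was not tested. The block ended 6 calls, among them Tnnc1 in Mu-RE at 26 against 10 weeks (adjusted p = 0.0825) and Tnnt1 there (adjusted p = 0.0625).

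Depth limits Tnni1 and Tnnc1 most, at about 64.0 and 75.1 reads per library at their mean level.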
